A study of Mus musculus with 20 samples.

Results

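Whole testis RNA from stages II/III-VI of the cycle of the seminiferous epithelium was compared with whole testis RNA from the other windows of the cycle. The members were chosen from the sample labels alone: the 2 Total arrays of window II/III-VI, set against the 8 Total arrays of windows XII-II/III, VI-VIII, VIII-X and X-XII, out of 20 arrays in the series. The other 10 arrays hold RNA precipitated with Leydig cell polysomes (IP) out of the testis homogenates and are used once, near the end. All groups were adult male mice on a 129/C57BL6 background that carried the RiboTag allele, which adds an HA epitope to a ribosomal protein in cells with Cre, and a Cyp17 iCre driver, which is active in Leydig cells. In all of them, the windows used for comparison included, spermatogenesis had been synchronized with the retinoic acid synthesis inhibitor WIN 18,446 (100 µg per g a day for 7 days from 2 days after birth) and then 200 µg of all-trans retinoic acid at 9 days after birth, so there was no unsynchronized group. Testes were collected 42 to 50 days after that injection, and RNA came from 50 µl of the homogenate of 1 testis, of which 100 ng was amplified for a Mouse Gene ST 1.0 array. The stage window is therefore tied to the day of collection, and the labels do not say whether replicates 1 and 2 of a window came from mice of the same litter or day, so p-values measure only the spread between these arrays, which may be technical.

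In the mouse, each segment of the tubule passes through a fixed series of germ cell associations, numbered I to XII. Stages II to VI hold dividing A, intermediate and B spermatogonia at the base, pachytene spermatocytes above them, round spermatids in which the Golgi builds the acrosomal cap and the axoneme extends, and condensed late spermatids not yet released. Stage VII to VIII is the time of meiotic entry and sperm release, stages IX to XI hold elongating spermatids, and the meiotic divisions fall in stage XII. In whole testis RNA, fewer cells of a type and less RNA per cell cannot be told apart.

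The labels were compared with genes of known timing. Stra8, which retinoic acid induces at meiotic entry, had its highest log2 intensities in VIII-X (8.53 and 8.90 in replicates 1 and 2) and its lowest in II/III-VI (7.40 and 7.66). Cdk1, the kinase of cell division, was highest in XII-II/III (12.02 and 12.06) and read 11.05 and 10.82 in II/III-VI. The pan-germ-cell helicase Ddx4 read 13.17 and 13.19 in II/III-VI and 12.69 to 13.05 elsewhere, so germ cell RNA was present in every window. Stra8 and Cdk1 thus varied between the labelled windows, whereas Ddx4 is not tied to a stage. Both II/III-VI values of Stra8 lie below log2 8.12, the level that a window mean had to reach for testing. So few genes are no full check of the labels. The labels of 1 array conflict: the source field of replicate 1 of XII-II/III reads X-II/III, and its title and stage field, which were used, read XII-II/III. Across 14929 genes, after centring within a replicate set, replicate 1 of II/III-VI correlated with replicate 2 of the same window at r = 0.86, the highest value in its row, and with replicate 2 of VI-VIII at 0.36. Replicate 1 of XII-II/III correlated at 0.86 with replicate 2 of X-XII and at 0.70 with its own window. Replicate 1 of VI-VIII correlated at 0.84 with replicate 2 of II/III-VI and at 0.85 with its own window. These r values describe genes, which are not independent, and the arrays of a set share their normalization.

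**Figure D1:**
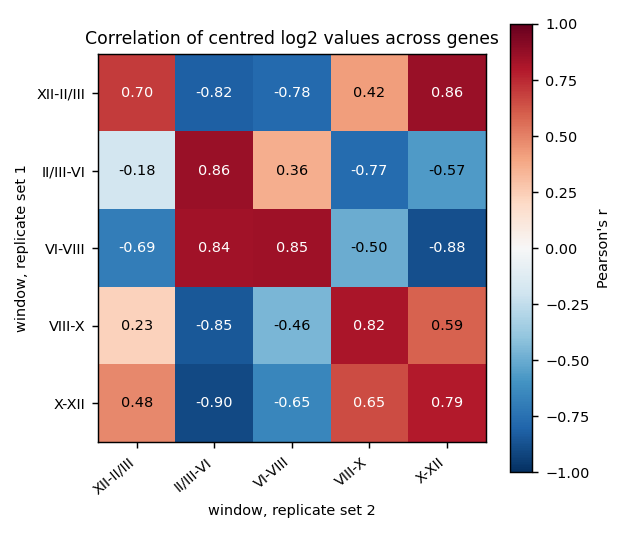
Pearson's r across 14929 genes between the 5 whole testis arrays of replicate set 1 (rows) and the 5 of set 2 (columns), each log2 value centred on the mean of its set. The II/III-VI arrays gave r = 0.86 with each other, and replicate 1 of XII-II/III stood closer to replicate 2 of X-XII (0.86) than to its own window (0.70).

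The first comparison asked which transcripts of the whole testis stood higher or lower in II/III-VI than in the mean of the other 4 windows. Of 14929 genes tested, 1945 (13.0%) were higher and 2455 (16.4%) lower at a limma adjusted p under 0.05, together 29.5%. The differences were mostly small. A difference of at least 1 on the log2 scale, a factor of 2 in intensity, was called for 215 higher (1.44%) and 212 lower genes (1.42%), together 2.86%. The median over all genes was -0.03. After centring, both II/III-VI arrays lay above all 8 others and the gene was called for 979 genes (6.56%), and below all 8 for 1243 (8.33%). The second II/III-VI array carried much of the count: without it 645 genes were higher and 610 lower, of which 627 and 568 were among the calls above, and without the first array 1390 were higher and 1608 lower. When the 8 other arrays were taken as 1 group, so that the differences among their windows counted as spread, 2 genes were higher and 4 lower.

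The 15 largest increases, among called genes whose II/III-VI arrays both lay above all others, ran from 1.77 (Frmd4b) to 2.36 (Ssxb2) in log2. They held 2 members of the X-linked Ssxb family, the mouse counterparts of the SSX cancer/testis antigens, 3 zinc finger genes, Tpte, a testis phosphatase gene, Iqca, a protein of the ciliary dynein regulatory complex, and the sodium channel gene Scn7a. Log2 intensities of Ssxb2 (probe set 10603525) were 9.69 and 9.60 in II/III-VI, 7.27 and 7.80 in XII-II/III, 8.42 and 7.30 in VI-VIII, 6.65 and 6.82 in VIII-X and 6.74 and 7.32 in X-XII. Both II/III-VI arrays lay more than 1 unit above the next highest array, and the difference was 2.36 ± 0.31 (SE, limma adjusted p = 0.00397). Ssxb3 read 9.12 and 8.67 in II/III-VI against a lowest, median and highest value of 6.31, 6.85 and 7.55 elsewhere, a difference of 2.00 ± 0.27 (limma adjusted p = 0.00404). The call of Ssxb2 was lost without replicate 2 of II/III-VI (adjusted p = 0.0531), and that of Ssxb3 was kept with each array left out. A gene was tested if any window mean reached log2 8.12, and Ssxb2 and Ssxb3 reached it in II/III-VI alone. They thus entered the test only through the window where they are high, and their other window means lie below that level. Their calls are therefore not independent of that filter. Ssxb5, the other family member tested and outside the rule for named genes, differed by 1.69. The 3 genes are near-identical copies, so that probes may read more than 1 of them and the values of each are uncertain.

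The windows around the start sites of Ssxb2 and Ssxb3 are printed because Ssxb2 had the largest increase among called genes whose II/III-VI arrays both lay above all others. Both come from RefSeq (GRCm38.p6), 250 bases before to 50 after the start, on the minus strand at chrX:8461677-8461976 and chrX:8591767-8592066, and capitals mark the longest run they share without a mismatch, 72 bases.
Ssxb2: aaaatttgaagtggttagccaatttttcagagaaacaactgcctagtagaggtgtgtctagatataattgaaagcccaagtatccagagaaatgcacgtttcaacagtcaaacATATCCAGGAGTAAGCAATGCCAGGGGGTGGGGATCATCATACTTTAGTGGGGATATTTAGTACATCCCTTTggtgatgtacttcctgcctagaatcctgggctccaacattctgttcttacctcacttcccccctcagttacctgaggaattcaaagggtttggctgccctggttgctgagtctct
Ssxb3: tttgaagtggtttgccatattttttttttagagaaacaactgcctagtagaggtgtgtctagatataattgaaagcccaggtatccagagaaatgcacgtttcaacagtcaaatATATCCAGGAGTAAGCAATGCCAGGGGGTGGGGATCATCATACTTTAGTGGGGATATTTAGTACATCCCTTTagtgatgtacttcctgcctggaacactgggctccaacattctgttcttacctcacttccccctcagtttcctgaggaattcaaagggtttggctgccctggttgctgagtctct

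Tpte showed the pattern of a gene high in II/III-VI and in the window that follows. Its values were 11.23 and 11.27 in II/III-VI, 10.93 and 10.24 in VI-VIII, 8.96 and 9.44 in XII-II/III, 8.05 and 7.96 in VIII-X and 7.89 and 8.44 in X-XII. The II/III-VI arrays did not overlap the others, and the difference was 2.26 ± 0.23 (limma adjusted p = 0.00202). Scn7a read 9.43 and 9.68 against 6.71, 7.10 and 9.18 elsewhere (lowest, median and highest), and was higher by 2.07 ± 0.22 (limma adjusted p = 0.00224). Zdhhc11, a palmitoyltransferase gene, read 11.25 and 11.79 against 8.21, 9.00 and 11.33. Its difference of 2.09 ± 0.11 had the lowest adjusted p of the 15 (limma adjusted p = 0.000939). The zinc finger genes Zfp819, Zfp708 and Zfp58 were higher by 2.04 ± 0.24, 1.87 ± 0.19 and 1.79 ± 0.14. Of 277 genes with a Zfp symbol, a group chosen after its values were seen, 39 were higher (14.1%) and 51 lower (18.4%). Fam228b (1.93 ± 0.11), Spdye4c (1.79 ± 0.14), a Speedy/RINGO family gene, and Frmd4b (1.77 ± 0.17), a FERM domain scaffold, complete the named genes with known families, and Gm12695, Gm5800 and Gm10791 are gene models. The calls of Gm12695 (adjusted p = 0.0909, 2 fits) and Iqca (0.0593) were lost without replicate 2 of II/III-VI. Each p in brackets is the highest over the 10 fits that left out 1 array, and the count beside it, here and below, is the number of those fits in which the call was lost.

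**Figure D2:**
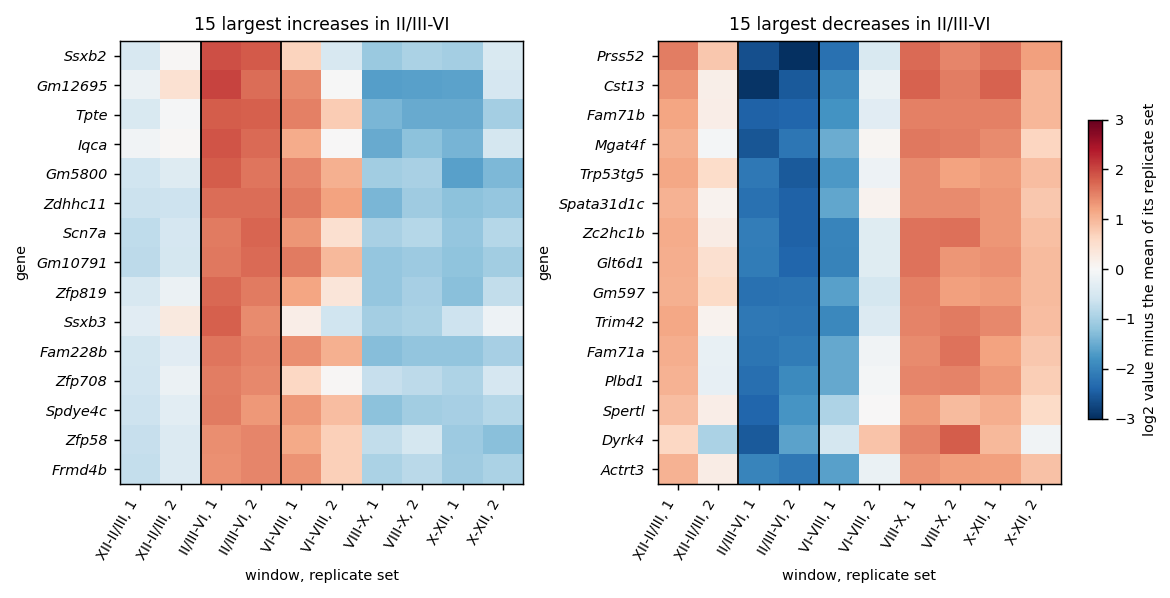
Centred log2 values (each array minus the mean of its replicate set of 5) of the 15 largest increases (left) and the 15 largest decreases (right) in the 10 whole testis arrays, with the II/III-VI arrays between the black lines. Of the other windows, VI-VIII mostly stood nearest to II/III-VI, but for Ssxb3 XII-II/III stood nearer. Replicate 1 of VI-VIII was closer to II/III-VI than replicate 2 for all of the decreases.

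Over all genes tested, the largest decrease (-3.56) exceeded the largest increase (2.91) in size. The lowest 15, among called genes whose II/III-VI arrays both lay below all others, ran from -2.58 (Actrt3) to -3.56 (Prss52). Most are genes with expression known mainly from the testis. Prss52, a serine protease, had log2 intensities of 8.90 and 8.73 in II/III-VI, 9.30 and 11.32 in VI-VIII, and between 12.59 and 13.25 in the 6 arrays of the other windows. Replicate 1 of VI-VIII stood near II/III-VI and replicate 2 between the extremes, and the difference was -3.56 ± 0.46 (limma adjusted p = 0.00368). The cystatin Cst13 read 7.17 and 7.79 in II/III-VI, 8.19 and 10.10 in VI-VIII and between 10.48 and 11.89 in the rest (-3.41 ± 0.51, limma adjusted p = 0.00566). Without replicate 2 of II/III-VI, Prss52 (adjusted p = 0.0575) and Cst13 (0.0583, 2 fits) no longer passed the threshold.

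Fam71b and Fam71a belong to the family now named Garin, Golgi-associated proteins known for a part in building the acrosome. Fam71b read 8.62 and 8.64 against 9.25, 12.13 and 12.56 elsewhere (lowest, median and highest) and fell by 3.00 ± 0.41 (limma adjusted p = 0.00438), and Fam71a differed by -2.68 ± 0.45. Of the 7 family members tested, a group chosen after these values were seen, 3 were lower (42.9%, beside 16.4% of all genes) and 0 higher. The glycosyltransferase family gene Mgat4f (-2.96 ± 0.47), Trp53tg5 (-2.92 ± 0.40), Spata31d1c (-2.91 ± 0.44), the ubiquitin ligase family gene Trim42 (-2.70 ± 0.43), the phospholipase-like Plbd1 (-2.62 ± 0.47), the kinase Dyrk4 (-2.58 ± 0.57) and the actin-related Actrt3 (-2.58 ± 0.38) were lower as well. In all of these the VI-VIII arrays lay between II/III-VI and VIII-X, with replicate 1 the lower of the pair. Among 30 Prss genes, a group also chosen after values were seen, 9 were lower (30.0%) and 2 higher (6.67%). Leaving out replicate 2 of II/III-VI ended the calls of Fam71b (adjusted p = 0.0588), Fam71a (0.0852, 2 fits), Mgat4f (0.0664, 2 fits), Trp53tg5 (0.0671), Spata31d1c (0.0784), Trim42 (0.0813, 2 fits), Plbd1 (0.0817, 2 fits) and Actrt3 (0.0731). With replicate 1 of II/III-VI left out, the call of Dyrk4 (adjusted p = 0.149, 2 fits) was lost.

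The next comparisons took each window apart, to show what the difference from the mean of the others is made of. II/III-VI differed from VIII-X in 4827 genes (32.3%), from X-XII in 4752 (31.8%) and from XII-II/III in 4007 (26.8%). Against VI-VIII 0 genes passed limma's adjusted threshold. For 3451 genes (23.1%) the unadjusted p of that comparison was under 0.05, and the lowest adjusted p was 0.104. The estimates against VI-VIII were not all small: 27 genes stood at least 1 higher and 82 at least 1 lower in II/III-VI, from 1.80 (Ssxb3) to -2.23 (Dyrk4), with standard errors of 0.34 and 0.73. Without replicate 1 of VI-VIII 15 genes were called (5 higher, 10 lower), and with the spread estimated over all 20 arrays 191 were (125 higher, 66 lower).

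Of the 1945 higher genes, 1398 (71.9%) had their highest window mean in II/III-VI and 547 (28.1%) in VI-VIII. The nearest other window was VI-VIII for 1666 of them, and the lowest was VIII-X for 883 and X-XII for 834. Of the 2455 lower genes, 1798 (73.2%) were lowest in II/III-VI and 657 (26.8%) in VI-VIII, and the highest window was VIII-X for 1245 and X-XII for 737. These counts describe the same values that made the calls and are no test.

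From XII-II/III to II/III-VI the largest called increases were those of Ppp4r3c-ps (3.16 ± 0.14), Spam1 (3.08 ± 0.12), 1700001P01Rik (2.67 ± 0.45), Mroh9 (2.64 ± 0.19) and Serpina3a (2.62 ± 0.30). Ppp4r3c-ps, an X-linked copy of a phosphatase regulatory subunit gene, read 9.98 and 10.16 in II/III-VI and 10.17 and 9.99 in VI-VIII, against 6.70 and 7.14, 6.18 and 6.34 and 6.13 and 6.52 in XII-II/III, VIII-X and X-XII. The differences of these 5 genes from VI-VIII lay between -0.70 and -0.01, in a comparison that called no gene. The largest decreases from XII-II/III were those of Fam71b (-3.09 ± 0.52), Trp53tg5 (-3.19 ± 0.51), Cst13 (-3.49 ± 0.65), Gm136 (-3.51 ± 0.76) and Prss52 (-4.02 ± 0.58). Gm136 read 9.53 and 8.02 in II/III-VI, so its 2 arrays differed by more than 1 unit.

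Gene lists by cell type and process were then counted against the shares of all genes, 13.0% higher and 16.4% lower. Round spermatid genes came first. Of 36 acrosome genes tested 10 (27.8%) stood higher and 3 (8.33%) lower, and their median difference was 0.17 against -0.03 for all genes. Spam1 encodes the PH-20 hyaluronidase of the sperm head. Its log2 intensities were 11.87 and 12.36 in II/III-VI, 12.25 and 12.25 in VI-VIII, 8.91 and 9.16 in XII-II/III, 7.73 and 7.89 in VIII-X and 7.51 and 7.96 in X-XII. Its difference of 2.91 ± 0.097 (limma adjusted p = 0.000474) was the largest of all genes tested, although II/III-VI and VI-VIII overlapped. Zan, the zonadhesin that binds the egg coat, read 11.52 and 11.53 against 8.50, 9.60 and 11.44 elsewhere (lowest, median and highest) and was higher by 1.68 ± 0.25 (limma adjusted p = 0.00517). Spaca1, an acrosomal membrane protein, read 12.20 and 12.56 against 9.21, 10.59 and 12.80 and was higher by 1.43 ± 0.27 (limma adjusted p = 0.0121). Zp3r (1.06 ± 0.25), a zona-binding protein of the acrosomal matrix, Spaca3 (0.81 ± 0.14), Zpbp (0.39 ± 0.061) and the protease Acr (0.16 ± 0.036) were also higher. Only Zpbp among these 7 lay above all other arrays, as the centred VI-VIII values of the other 6 overlapped those of II/III-VI. Cylc1 (-0.88 ± 0.14), a cylicin of the perinuclear theca, Gopc (-0.72 ± 0.054), a Golgi protein, and Capza3 (-0.52 ± 0.13), an actin-capping subunit, were lower, and each lay below all other arrays. The threshold was missed without replicate 1 of II/III-VI by Zan (adjusted p = 0.0518), Acr (0.108, 2 fits), Cylc1 (0.0596, 2 fits) and Capza3 (0.217, 6 fits). The calls of Spaca1 (adjusted p = 0.13, 2 fits), Zp3r (0.226, 4 fits), Spaca3 (0.111) and Zpbp (0.0733) were lost without replicate 2 of II/III-VI.

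**Figure D3:**
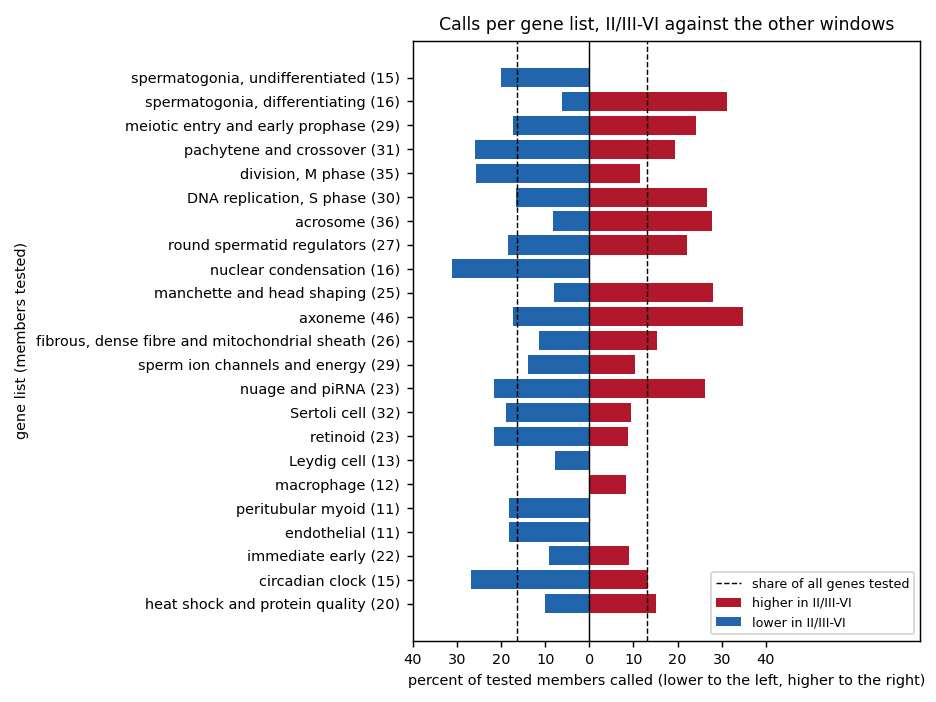
Percent of the tested members of each gene list that were higher (red, to the right) or lower (blue, to the left) in II/III-VI, with the shares of all genes tested as dashed lines (13.0% and 16.4%) and the number of members tested in brackets. The axoneme (34.8%) and differentiating spermatogonia lists (31.2%) held the largest shares of higher members, and the nuclear condensation list the largest share of lower ones (31.2%).

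Of 16 nuclear condensation genes tested 5 (31.2%) stood lower and 0 higher, and the median was -0.26. Cdyl, a chromodomain protein of spermatid chromatin, read 9.21 and 10.01 against 10.46, 11.21 and 11.57 elsewhere and fell by 1.52 ± 0.24 (limma adjusted p = 0.00691). Hils1, a spermatid linker-histone-like protein, read 11.73 and 11.94 against 12.26, 12.71 and 13.10 and fell by 0.86 ± 0.11 (limma adjusted p = 0.00359). Gmcl1 (-0.75 ± 0.069), the linker histone H1f7 (-0.69 ± 0.16) and the remodeller Chd5 (-0.53 ± 0.15) were lower too. The transition protein genes differed widely between the 2 arrays. Tnp1 read 12.28 and 10.61 in II/III-VI and 10.22 and 11.40 in VI-VIII, against at least 13.10 in the other windows, a difference of -1.21 ± 0.46 that did not pass the test (limma adjusted p = 0.0958). Tnp2 (-0.76 ± 0.42, limma adjusted p = 0.226) was not called either. The protamine genes Prm1 and Prm2 read 13.93 and 13.83 and 14.28 and 14.31, close to the top of the scale, where the brightest probe set of an array lay between 22180 and 24092 intensity units, and differed by 0.07 ± 0.069 and 0.03 ± 0.04. Without replicate 2 of II/III-VI, H1f7 (adjusted p = 0.206, 5 fits) no longer passed the threshold. Leaving out replicate 1 of II/III-VI ended the call of Chd5 (adjusted p = 0.265, 6 fits).

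Regulators of round spermatids were split, with 6 of 27 higher (22.2%), 5 lower (18.5%) and the median at 0.08. Hmgb4, an HMG-box protein of spermatids, read 12.14 and 11.81 against 12.17, 13.23 and 13.35 elsewhere and fell by 1.07 ± 0.15 (limma adjusted p = 0.00432). Fhl5, the coactivator of the transcription factor CREM, fell by 0.75 ± 0.098, while Crem itself was higher by 0.34 ± 0.043 (limma adjusted p = 0.00359), with 12.70 and 12.73 in II/III-VI and 12.70 and 12.58 in VI-VIII against 12.23 to 12.38 in the other windows. Sox30 (-0.34 ± 0.05) and the kinases Tssk2 (-0.34 ± 0.062) and Camk4 (-0.59 ± 0.15) were lower, and Sox5 (0.43 ± 0.078) and Tdrd7 (0.40 ± 0.072), a chromatoid body protein, higher. With replicate 2 of II/III-VI left out, the calls of Hmgb4 (adjusted p = 0.0644), Camk4 (0.255, 7 fits) and Sox5 (0.0984, 2 fits) were lost. The threshold was missed without replicate 1 of II/III-VI by Tssk2 (adjusted p = 0.0759, 2 fits) and Tdrd7 (0.0783, 2 fits).

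Genes of the axoneme, the microtubule core of the flagellum, held the largest share of higher members. Of 46 tested, 16 (34.8%) lay higher and 8 (17.4%) lower around a median of 0.10. Iqca read 11.50 and 11.29 in II/III-VI, 9.52 and 9.60 in XII-II/III, 10.73 and 9.60 in VI-VIII, 8.11 and 8.34 in VIII-X and 8.22 and 9.06 in X-XII, and was higher by 2.24 ± 0.33 (limma adjusted p = 0.00513). Cfap58, a cilia and flagella protein, read 11.59 and 11.61 in II/III-VI and 11.62 and 11.50 in VI-VIII against at most 10.12 elsewhere and was higher by 1.42 ± 0.074 (limma adjusted p = 0.000939). Spag6 (1.32 ± 0.11), of the central pair, was higher too and counts both here and in the list of pachytene genes. Ppil6 (1.30 ± 0.16), Armc4 (0.82 ± 0.088), which docks outer dynein arms, and the tektins Tekt2 (0.65 ± 0.11) and Tekt4 (0.64 ± 0.069) were also higher. Tekt5 went against the other tektins, with 12.04 and 12.42 in II/III-VI against 12.96, 13.43 and 13.85 elsewhere, a difference of -1.22 ± 0.14 (limma adjusted p = 0.00275). The dynein heavy chains Dnah2 (-0.91 ± 0.13) and Dnah8 (-0.42 ± 0.061) were lower as well. The calls of Iqca (adjusted p = 0.0593) and Tekt2 (0.0868, 2 fits) were lost without replicate 2 of II/III-VI.

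Of 26 genes of the fibrous sheath, outer dense fibres and mitochondrial sheath, 4 were higher (15.4%) and 3 lower (11.5%). Fsip1, which interacts with the fibrous sheath, read 11.83 and 11.92 against 9.43, 10.09 and 11.79 elsewhere and was higher by 1.50 ± 0.12 (limma adjusted p = 0.00125), Odf3l1 was higher by 0.96 ± 0.17, and Ropn1 (-0.55 ± 0.095) and Akap3 (-0.29 ± 0.07) were lower. Akap4, the main fibrous sheath protein, differed by 0.02 ± 0.037 (limma adjusted p = 0.694). Of 29 ion channel and energy genes 3 were higher and 4 lower, with the calcium channel subunit Catsper3 in front, at 11.92 and 12.28 against 8.83, 10.15 and 12.29 elsewhere, a difference of 1.62 ± 0.27 (limma adjusted p = 0.00808). The sperm potassium channel Kcnu1 was higher by 0.77 ± 0.14. Of 25 manchette and head shaping genes 7 were higher (28.0%) and 2 lower (8.0%), among them Sun5 (0.81 ± 0.16), which couples tail and head, and Spatc1l (0.69 ± 0.052). Without replicate 2 of II/III-VI, Odf3l1 (adjusted p = 0.119), Catsper3 (0.106), Kcnu1 (0.127, 2 fits) and Sun5 (0.146, 2 fits) no longer passed the threshold. Leaving out replicate 1 of II/III-VI ended the calls of Ropn1 (adjusted p = 0.0738, 2 fits) and Akap3 (0.183, 5 fits).

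Of 29 genes of meiotic entry and early prophase 7 (24.1%) stood higher and 5 (17.2%) lower around a median of 0.03. Rec8, the meiotic cohesin subunit, read 11.07 and 11.15 in II/III-VI and 11.33 and 11.43 in VI-VIII against at most 9.89 in the other windows, and was higher by 1.11 ± 0.091 (limma adjusted p = 0.00135). Tex15, needed for meiotic break repair, read 11.71 and 11.94 and 11.87 and 11.76 in those windows against at most 10.85 elsewhere and was higher by 0.87 ± 0.077 (limma adjusted p = 0.00161). The chromosome axis gene Hormad2 (0.63 ± 0.11) and the synaptonemal complex genes Tex12 (0.58 ± 0.13) and Sycp1 (0.52 ± 0.083) were higher as well. Prdm9, which marks recombination hotspots, read 7.83 and 7.83 against 8.04, 8.75 and 9.12 elsewhere, a difference of -0.83 ± 0.14 (limma adjusted p = 0.00707), and Stra8 fell by 0.68 ± 0.078 (limma adjusted p = 0.0027). The cohesin Rad21l (-0.92 ± 0.23), the break formation gene Iho1 (-0.65 ± 0.16) and Terb1 (-0.43 ± 0.068), which ties telomeres to the nuclear envelope, were lower too. After centring within a set, Stra8 and Prdm9 lay below all 8 other arrays, whereas VI-VIII overlapped II/III-VI for the other 3. With replicate 2 of II/III-VI left out, the calls of Hormad2 (adjusted p = 0.0978), Tex12 (0.125), Sycp1 (0.0535), Prdm9 (0.0766, 2 fits), Rad21l (0.189, 4 fits) and Terb1 (0.0849) were lost. The threshold was missed without replicate 1 of II/III-VI by Iho1 (adjusted p = 0.183, 7 fits).

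**Figure D4:**
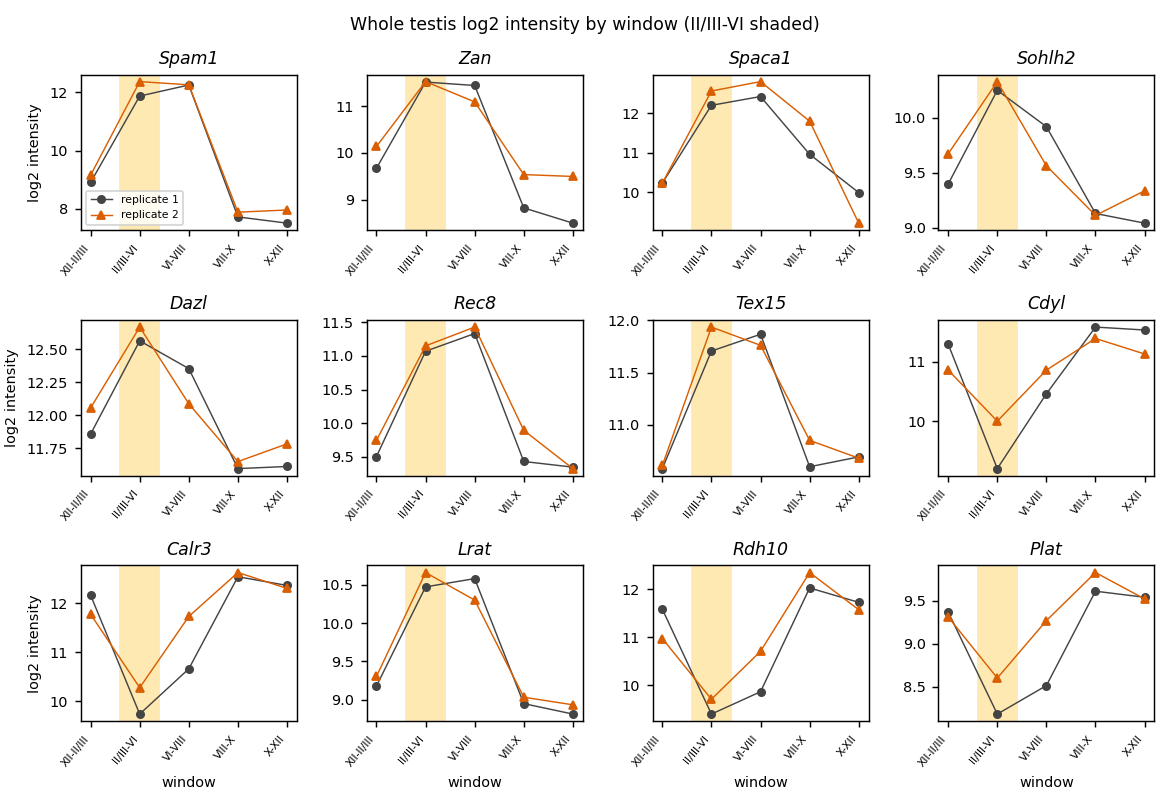
Log2 intensity of 12 genes in the 5 whole testis arrays of each replicate set (circles and triangles), with II/III-VI shaded and each panel on its own axis. Spam1, Rec8, Tex15 and Lrat were high in both II/III-VI and VI-VIII, Sohlh2 and Dazl were highest in II/III-VI, and Cdyl, Calr3, Rdh10 and Plat were lowest there.

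Among 31 pachytene and crossover genes 6 (19.4%) were higher and 8 (25.8%) lower. Pou5f2, a POU domain gene of spermatocytes, read 9.18 and 8.76 in II/III-VI and 8.82 and 8.85 in VI-VIII, against 11.10 to 11.99 in the other 6 arrays. It fell by 1.99 ± 0.15 (limma adjusted p = 0.00125). Mlh3 (-0.61 ± 0.10), of the crossover mismatch-repair complex, the piRNA-binding protein Piwil1 (-0.61 ± 0.14) and the testis linker histone H1f6 (-0.55 ± 0.12) were lower, and the phosphatase Cdc25c (0.67 ± 0.074) and the crossover gene Msh4 (0.58 ± 0.045) higher. Of 35 genes of M phase 9 (25.7%) were lower and 4 (11.4%) higher. Ccnb3, a cyclin of meiosis, read 7.06 and 7.19 and 6.91 and 7.17 in II/III-VI and VI-VIII against at least 8.51 elsewhere and fell by 1.49 ± 0.16 (limma adjusted p = 0.00242). Aurkb (-0.66 ± 0.18) and Cdk1 (-0.52 ± 0.087) were lower too, and the difference was largest against XII-II/III (-1.28 ± 0.22 and -1.10 ± 0.11). The calls of Piwil1 (adjusted p = 0.169, 4 fits) and H1f6 (0.127) were lost without replicate 1 of II/III-VI. Without replicate 2 of II/III-VI, Aurkb (adjusted p = 0.209, 6 fits) and Cdk1 (0.0896) no longer passed the threshold.

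Differentiating spermatogonia, the dividing cells of these stages, had 5 of 16 genes higher (31.2%) and 1 lower (6.25%), with a median of 0.06. Sohlh2, a transcription factor of spermatogonial differentiation, read 10.25 and 10.33 against 9.04, 9.37 and 9.92 elsewhere and was higher by 0.89 ± 0.12 (limma adjusted p = 0.0044). The RNA-binding Dazl read 12.56 and 12.67 against 11.60, 11.82 and 12.35 and was higher by 0.74 ± 0.09 (limma adjusted p = 0.00314). Crabp1 (0.56 ± 0.10), Dmrt1 (0.44 ± 0.085) and Tex101 (0.40 ± 0.12) were higher, and Prss50 (-0.33 ± 0.06) was lower. Tex101 is also in the acrosome list and counts as a higher member of both. Kit, the receptor that defines these cells, read 9.94 and 10.01 in II/III-VI and 9.54 to 10.27 elsewhere and differed by 0.14 ± 0.11 (limma adjusted p = 0.37). Summed over the 16 genes, linear intensity was 23303 and 24410 in II/III-VI against 17499 to 22822 in the other 8 arrays. Bright members such as Dazl weigh most in that sum, and the median centred log2 value of the list, at most 0.10 in II/III-VI, lay within the -0.10 to 0.11 of the other arrays. Of 15 genes of undifferentiated spermatogonia 3 were lower and 0 higher: Pou5f1 (-0.67 ± 0.14), Lhx1 (-0.57 ± 0.053) and Uchl1 (-0.51 ± 0.09). The share of lower members was only a little above the 16.4% of all genes. Pou5f1 read 7.19 and 7.16 in II/III-VI against 7.33, 7.73 and 8.56 elsewhere (lowest, median and highest). It thus reached log2 8.12, the level for testing, only through another window, and its call is not independent of that filter. Lhx1 read 8.12 and 8.07 in II/III-VI, close to that level. Leaving out replicate 2 of II/III-VI ended the calls of Sohlh2 (adjusted p = 0.0609), Crabp1 (0.105, 2 fits), Dmrt1 (0.131), Tex101 (0.287, 7 fits), Prss50 (0.0964) and Pou5f1 (0.135, 2 fits). With replicate 1 of II/III-VI left out, the call of Uchl1 (adjusted p = 0.0539) was lost.

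Of 30 DNA replication genes 8 (26.7%) stood higher and 5 (16.7%) lower around a median of -0.06, so the list did not move one way. The higher members included the replicative helicase subunits Mcm3, Mcm4, Mcm2 and Mcm7. Mcm3 read 9.11 and 9.27 in II/III-VI and 9.08 and 9.17 in VI-VIII against at most 8.57 elsewhere and was higher by 0.54 ± 0.064 (limma adjusted p = 0.00294), and the other 3 differed by 0.47 ± 0.091, 0.33 ± 0.072 and 0.25 ± 0.05. Thymidylate synthase, Tyms, was higher by 0.47 ± 0.07, and the maintenance methyltransferase Dnmt1 (-0.50 ± 0.14) and the helicase cofactor Gins2 (-0.44 ± 0.074) were lower. Of 23 nuage and piRNA genes 6 were higher and 5 lower, among them Asz1 (0.54 ± 0.078) and the piRNA methyltransferase Henmt1 (-0.53 ± 0.081). The threshold was missed without replicate 2 of II/III-VI by Mcm4 (adjusted p = 0.137), Mcm2 (0.175, 2 fits), Tyms (0.0737), Asz1 (0.0575) and Henmt1 (0.0782). The calls of Mcm7 (adjusted p = 0.0878, 2 fits), Dnmt1 (0.275, 8 fits) and Gins2 (0.0664, 2 fits) were lost without replicate 1 of II/III-VI.

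Sertoli cells nurse the germ cells and form the blood-testis barrier. Of 32 Sertoli cell genes 6 (18.8%) stood lower and 3 (9.38%) higher around a median of 0.05. Plat, tissue plasminogen activator, read 8.18 and 8.60 against 8.51, 9.44 and 9.83 elsewhere and fell by 0.98 ± 0.15 (limma adjusted p = 0.00663). Gata1, a Sertoli cell transcription factor, read 8.57 and 8.46 against 9.12, 9.36 and 9.68 and fell by 0.90 ± 0.082 (limma adjusted p = 0.00165). Shbg (-0.75 ± 0.11), which encodes the androgen-binding protein, Cdh2 (-0.57 ± 0.046), an adhesion molecule that germ cells also carry, Cldn3 (-0.38 ± 0.091) and Ocln (-0.36 ± 0.089), of tight junctions, were lower. Ocln stood lowest in VI-VIII, with II/III-VI above it by 0.64 ± 0.11 (limma adjusted p = 0.104). Kitl (0.44 ± 0.13), the ligand of Kit, the junction scaffold Tjp1 (0.35 ± 0.065) and Tsx (0.27 ± 0.077) were higher. Summed over the list, intensity was 78211 and 84112 in II/III-VI against 75033 to 83217 elsewhere. Without replicate 2 of II/III-VI, Shbg (adjusted p = 0.0545, 2 fits), Cldn3 (0.232, 5 fits), Ocln (0.255, 4 fits), Kitl (0.37, 8 fits), Tjp1 (0.119) and Tsx (0.354, 9 fits) no longer passed the threshold. Leaving out replicate 1 of II/III-VI ended the call of Plat (adjusted p = 0.0607, 2 fits).

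Retinoic acid drives spermatogonial differentiation and meiotic entry, and its supply is known to vary along the cycle. Of 23 retinoid genes 5 (21.7%) were lower and 2 (8.70%) higher. Rdh10, which oxidizes retinol to retinaldehyde, read 9.40 and 9.71 in II/III-VI, 9.86 and 10.71 in VI-VIII, 12.03 and 12.35 in VIII-X, 11.73 and 11.58 in X-XII and 11.59 and 10.97 in XII-II/III. Both II/III-VI arrays lay below all others, and the difference was -1.80 ± 0.25 (limma adjusted p = 0.00445). Lrat, which stores retinol as esters, went the opposite way, with 10.47 and 10.66 in II/III-VI and 10.58 and 10.30 in VI-VIII against at most 9.31 elsewhere (1.18 ± 0.09, limma adjusted p = 0.00122). Crabp1, a retinoic acid-binding protein counted above with spermatogonia, was the other higher member. The retinol receptor Stra6 (-0.70 ± 0.20) and the nuclear receptors Rxrg (-0.74 ± 0.12) and Rarb (-0.42 ± 0.11) were lower, as was Stra8 (-0.68 ± 0.078). All mice had received retinoic acid and an inhibitor of its synthesis early in life, and the part of that treatment in these levels was not tested. With replicate 2 of II/III-VI left out, the calls of Rdh10 (adjusted p = 0.0534), Stra6 (0.289, 8 fits), Rxrg (0.0548), Rarb (0.318, 7 fits) and Crabp1 (0.105, 2 fits) were lost.

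Of 13 Leydig cell genes 1 was lower and 0 higher: the lipoprotein receptor Scarb1 (-0.84 ± 0.12), which Sertoli cells also express, at 11.12 and 11.15 against 11.37, 12.01 and 12.29 elsewhere. The cholesterol carrier Star differed by 0.20 ± 0.25 (limma adjusted p = 0.578). Of 12 macrophage genes 1 was higher, Adgre1, the F4/80 antigen (0.55 ± 0.058, limma adjusted p = 0.00223). Of 11 peritubular myoid genes 2 were lower, among them the smooth muscle actin Actg2 (-0.35 ± 0.063), and of 11 endothelial genes 2, Egfl7 (-0.45 ± 0.042) and Vwf (-0.21 ± 0.058). The summed intensity of the myoid list was 21017 and 19726 in II/III-VI, below the 22024 to 23500 of the other 8 arrays, and that of the endothelial list 4350 and 4406, below 4440 to 4930. Actg2 weighs most in the myoid sum. It read 12.98 and 12.85 in II/III-VI against 13.07, 13.27 and 13.37 elsewhere (lowest, median and highest). The median centred log2 value of the myoid list was -0.01 and -0.03 in II/III-VI and -0.01 to 0.05 elsewhere. After centring, 6 of the 11 endothelial genes lay below all 8 other arrays, as did 1967 of the 14929 genes. Their part in the other differences was not tested. The Leydig and macrophage sums lay within the range of the others. Of 3 blood genes tested, Alas2, the erythroid haem synthesis enzyme, read 10.96 and 10.55 against 8.26, 9.17 and 10.24 elsewhere and was higher by 1.52 ± 0.37 (limma adjusted p = 0.0255), and the blood sum was 2858 and 2289 against 1246 to 2104. Cd3e was lower (-0.34 ± 0.039). Slc4a1 was not called, and the median difference of the 3 genes was -0.13. Alas2 weighs most in the blood sum. The median centred log2 value of the list was -0.09 and -0.12 in II/III-VI, within the -0.17 to 0.10 of the other arrays. None of 4 epididymis genes tested was called. The threshold was missed without replicate 2 of II/III-VI by Scarb1 (adjusted p = 0.0594), Actg2 (0.104), Vwf (0.326, 8 fits) and Alas2 (0.181, 4 fits).

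The 22 immediate early genes tested held 2 higher and 2 lower ones. Klf2 was higher by 0.84 ± 0.11 (limma adjusted p = 0.00378) and Fosl1 by 0.39 ± 0.051, and the AP-1 subunits Jund (-0.71 ± 0.065) and Jun (-0.58 ± 0.074) were lower. Of 15 clock genes 4 (26.7%) were lower and 2 (13.3%) higher, with Nfil3 (-0.85 ± 0.15) and Per1 (-0.59 ± 0.12) lower and Nr1d1 (0.60 ± 0.073) higher; the labels used here give no hour of collection. Of 20 heat shock and protein quality genes 3 were higher and 2 lower. Calr3, a testis chaperone of the calreticulin family, read 9.74 and 10.28 in II/III-VI, 10.66 and 11.73 in VI-VIII and at least 11.78 in the other windows, a difference of -2.01 ± 0.26 (limma adjusted p = 0.00365). Hsf2, a heat shock factor with a role in spermatogenesis, read 11.66 and 11.70 and 11.78 and 11.67 in II/III-VI and VI-VIII against at most 10.03 elsewhere, higher by 1.51 ± 0.075 (limma adjusted p = 0.000896). The mitochondrial chaperone pair Hspd1 (0.46 ± 0.085) and Hspe1 (0.51 ± 0.077) was higher. The calls of Nfil3 (adjusted p = 0.104, 2 fits), Per1 (0.14, 2 fits), Hspd1 (0.129) and Hspe1 (0.0717) were lost without replicate 2 of II/III-VI.

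The sex chromosomes are silenced in pachytene spermatocytes, and a subset of their genes returns in round spermatids. Of 474 X-linked genes tested, a group chosen after values were seen, 101 (21.3%) were higher and 60 (12.7%) lower, and of 14388 autosomal genes 12.7% were higher and 16.6% lower. The median of the X-linked genes was 0.02 and that of the autosomal genes -0.03. Of 8 Y-linked genes 3 were higher and 0 lower. No test of these shares was made.

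X-boxes, the motif that RFX transcription factors bind in the promoters of ciliary genes, were counted in the same windows of 250 bases before to 50 after the start, which 11942 of the 14929 tested genes (80.0%) had. The letters searched were GTTNCCNNGGNAAC, on both strands, a form chosen after other forms had been looked at. They occurred in 87 of all windows (0.729%), in 31 of 1587 windows of higher genes (1.95%) and in 7 of 1975 of lower genes (0.354%). The 8-base cAMP response element, TGACGTCA, which reads the same on both strands, occurred in 3.24% of all windows, 3.72% of those of higher genes and 2.73% of those of lower genes. Of the 16 higher axoneme genes 13 had a window and 1, Iqca, held an X-box. The windows of Iqca (chr1:90153387-90153686, minus strand) and of 2 other X-box genes higher by at least 1, 1700029J07Rik (chr8:45975203-45975502, minus strand) and Etfbkmt (chr6:149141263-149141562, plus strand), show where the match lies. Capitals mark it, and it starts 100, 25 and 72 bases before the start site.
Iqca: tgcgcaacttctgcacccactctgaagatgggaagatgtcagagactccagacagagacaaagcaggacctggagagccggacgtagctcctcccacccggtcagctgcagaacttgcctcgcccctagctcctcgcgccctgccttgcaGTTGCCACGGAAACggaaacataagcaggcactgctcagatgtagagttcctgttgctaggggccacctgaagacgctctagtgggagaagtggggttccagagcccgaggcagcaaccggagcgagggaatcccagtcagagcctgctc
1700029J07Rik: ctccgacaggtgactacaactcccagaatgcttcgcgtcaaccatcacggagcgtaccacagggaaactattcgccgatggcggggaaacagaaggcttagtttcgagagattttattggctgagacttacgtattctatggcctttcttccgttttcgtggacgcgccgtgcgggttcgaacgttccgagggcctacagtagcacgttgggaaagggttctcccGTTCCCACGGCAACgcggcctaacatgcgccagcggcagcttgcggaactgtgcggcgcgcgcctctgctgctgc
Etfbkmt: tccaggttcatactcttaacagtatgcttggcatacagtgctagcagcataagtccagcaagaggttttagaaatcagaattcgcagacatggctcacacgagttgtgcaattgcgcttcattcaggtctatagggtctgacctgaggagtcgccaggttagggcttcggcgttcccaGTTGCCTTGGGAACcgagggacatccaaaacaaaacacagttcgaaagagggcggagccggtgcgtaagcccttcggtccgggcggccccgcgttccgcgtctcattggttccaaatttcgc
Iqca was higher by 2.24, 1700029J07Rik by 1.75 and Etfbkmt by 1.37. Other higher genes with the motif included Bbs7 (0.42), of the Bardet-Biedl complex that serves cilia, and Tctn1 (0.19), of the ciliary transition zone. The lower genes with the motif included Dnaaf6 (-0.88), an assembly factor of axonemal dyneins, Tbcel (-0.33) and Morn4 (-0.23). Dnaaf6b, with the motif too, was higher (0.37). The genes named here for the motif, besides Iqca, were chosen after their values were seen. Of the RFX factors in the round spermatid list, Rfx3 was higher by 0.23 ± 0.047 and Rfx2 differed by -0.02 ± 0.041 (limma adjusted p = 0.683). Without replicate 2 of II/III-VI, Rfx3 (adjusted p = 0.133, 2 fits) no longer passed the threshold. A match is a run of letters and no measure of binding.

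The last comparison asked whether the same window stood out in the IP arrays, where Leydig cell RNA is enriched and germ cell RNA is reduced but present. Among 15651 genes tested over all 20 arrays, 844 (5.39%) were higher and 1239 (7.92%) lower in II/III-VI IP than in the other IP windows. The difference in total RNA minus that in IP was called for 231 genes (1.48%), 161 positive and 70 negative. The count was 0 without replicate 2 of Total II/III-VI, 54 without replicate 1, 83 without replicate 1 of XII-II/III and 141 to 150 without replicate 1 or 2 of VIII-X or replicate 1 of X-XII. IP arrays were not left out in turn. The labels do not say whether the fractions were normalized together, and part of a testis went into both, so each contrast is within a fraction. Total and IP arrays of the same window and number had deviations correlated at 0.30 to 0.52 across genes. With those arrays taken as pairs, limma called 462 genes (271 positive, 191 negative), of which 199 were among the 231.

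**Figure D5:**
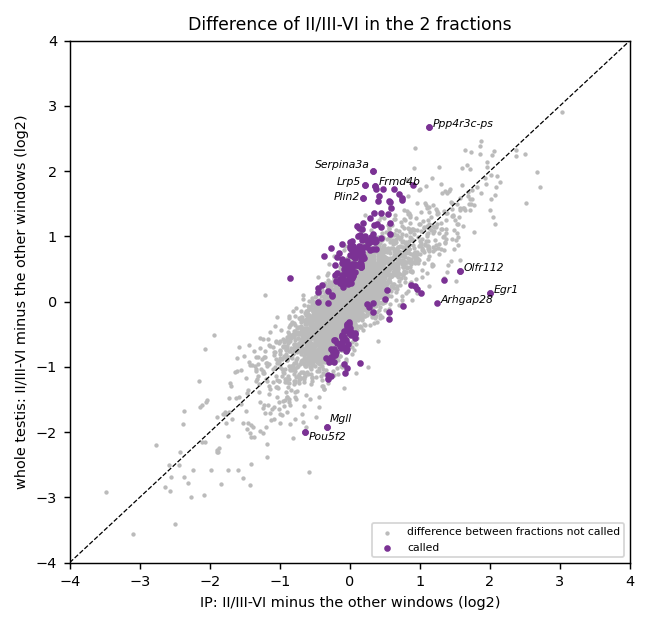
Difference of II/III-VI from the mean of the other windows in whole testis (vertical) against the same difference in IP (horizontal), in log2, for genes tested in both, with the line of equality dashed. Purple marks the plotted genes whose difference was unequal in the 2 fractions by the test of the difference, and the 10 with the largest and smallest called values carry names.

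Spam1 was higher in II/III-VI by 2.91 in total RNA and by 3.03 in IP, and Prss52 differed by -3.56 and -3.10. Among the called differences, Lrp5, a Wnt coreceptor, read 11.99 and 12.09 in II/III-VI total RNA, 12.10 and 11.82 in VI-VIII and 9.28 to 10.29 in the other 6 total arrays, while in IP it lay between 11.17 and 12.10 in all 10 arrays. The difference of the differences was 1.57 ± 0.18. Plin2, a lipid droplet protein, read 11.45 and 12.24 in II/III-VI total RNA, 12.30 and 12.48 in VI-VIII and 9.22 to 10.10 in the other 6 total arrays, against 11.65 to 12.39 in IP (1.40 ± 0.20). The VI-VIII total arrays of both genes were thus about as high as those of II/III-VI or higher. Serpina3a read 10.33 and 11.62 in II/III-VI total RNA, 11.32 and 11.66 in VI-VIII and at most 8.42 in the other total arrays (1.67 ± 0.34), and Frmd4b (1.42 ± 0.21) and Ppp4r3c-ps (1.54 ± 0.30) had positive values too. Ppp4r3c-ps was called in IP as well, higher by 1.14 ± 0.21.

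Of the genes named with negative values, Mgll, the monoacylglycerol lipase, read 9.35 and 9.67 in II/III-VI total RNA and at least 10.34 in the other total arrays, against 11.34 to 12.19 in IP (-1.59 ± 0.20). Pou5f2 was lower in both fractions, by less in IP (-1.36 ± 0.26). Egr1, an immediate early transcription factor, read 10.99 and 11.63 in II/III-VI IP and 8.79 to 10.16 in the other IP arrays, while the 10 total arrays lay between 8.79 and 9.01 (-1.88 ± 0.32). Arhgap28 (-1.26 ± 0.24), which was too dim in total RNA for the main comparison, and the olfactory receptor gene Olfr112 (-1.11 ± 0.22) were higher in IP by 1.25 ± 0.17 and 1.57 ± 0.15. Olfr112 differed by 0.46 in total RNA, the same direction as in IP.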

How the data were processed

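Whole testis RNA was measured on 10 arrays (5 windows, 2 replicates), beside 10 IP arrays. The deposited values are linear intensities per probe set. Per the submitters' processing notes the method was RMA, whose version is not given in the sources used here. Equal values occurred within a set of 5 arrays (6.01% to 15.5% of value pairs) and in 4 of 645075 pairs across the 2 Total sets, so each set appears to have been normalized apart. Probe sets listed in the Total sets numbered 26006 and 26013, each with a maximum of at least 100.0. The number of arrays limits the precision.

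Intensities were taken as log2. Symbols came from the platform annotation (21789 of 28856 probe sets with 1 symbol, 1621 with several, 5446 with none; only the first kind was used). Where a gene had several (893 genes tested), the brightest over the Total arrays was kept. Genes listed in all 10 Total arrays with a window mean at or above the 25th percentile (log2 8.12) were tested: 14929. limma 3.58.1 (R 4.3.3; lmFit, eBayes) fitted 5 window means and the replicate set as a block (4 residual degrees of freedom, 2.2 prior). The contrast was II/III-VI minus the mean of the other 4 window means, two-sided, Benjamini-Hochberg adjusted over all genes, with a threshold of 0.05. The block stands for the separate normalization. Same-numbered Total arrays of different windows had deviations correlated at -0.10 to 0.66, and the labels do not say that a number marks a shared animal or day. The Total minus IP contrast used all 20 arrays, with a filter at log2 8.20 (15651 genes). Per the labels' protocols, total and IP RNA came from the same homogenate, so same-numbered arrays of a window were also fitted as pairs.

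Named are tested members of the gene lists, the 15 largest and 15 smallest differences among called genes with both II/III-VI arrays beyond all others, and the 5 largest and 5 smallest called differences from each neighbouring window and between the fractions. The members and lists were chosen with earlier results of these data known. The procedure was also run on simulated arrays with independent noise and no differences among the other windows. That run does not cover the correlated deviations or the differences among windows of these data. Alternatives covered normalization, filter, block, arrays fitted, variance model, probe set choice, pseudocount and leaving out each Total array.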

Additional observations from a re-analysis of the deposited data

Results flagged for a closer look

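The difference of II/III-VI from the other windows was unequal in whole testis and IP for 231 genes, by limma's test of the difference itself over all 20 arrays. On the log2 scale, whole testis minus IP was 1.67 for Serpina3a, 1.57 for Lrp5, 1.54 for Ppp4r3c-ps, 1.42 for Frmd4b and 1.40 for Plin2. It was -1.11 for Olfr112, -1.26 for Arhgap28, -1.36 for Pou5f2, -1.59 for Mgll and -1.88 for Egr1. All 231 calls were lost without replicate 2 of Total II/III-VI.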

How the results depend on the processing

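Quantile normalization within a set, median centring, no filter or one at the 50th percentile, a variance trend, the mean of all probe sets and a pseudocount of 50 kept every count of calls within 1.5 times. None of the 214 called genes followed below changed direction in any fit that tested it. Without the replicate block, which was part of the fit, 1709 genes were higher and 2007 lower, 0 differed from VI-VIII, and the count of genes unequal in total RNA and IP fell from 231 to 5. That count was 35 with array weights and 462 with the total and IP arrays paired by window and number, an alternative chosen after seeing the data. With the other windows as 1 group of 8 arrays, 2 genes were higher, 4 lower and 0 by at least 1; the differences among those windows then count as spread. With all 20 arrays in the fit 191 genes differed from VI-VIII. Without replicate 1 of XII-II/III and replicate 2 of X-XII, an alternative chosen after seeing the data, 2254 genes differed from XII-II/III, 2898 from X-XII and 123 between the fractions. Leaving out each Total array in turn gave 645 to 1777 higher genes, 610 to 2193 lower and 258 to 468 by at least 1. It gave 1503 to 3599 genes against XII-II/III, 0 to 15 against VI-VIII, 2414 to 4440 against VIII-X, 2463 to 4294 against X-XII, and 0 to 339 between the fractions. Apart from the construction just named, the cause of these changes was not tested. Of the 214 called genes that the rule for named genes takes, 43 lost the call with array weights, 33 without those 2 arrays, 13 without the block, and 214 with the others as 1 group. With all 20 arrays 55 of 211 lost it. The number of arrays, 2 in II/III-VI, limits the precision.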

Other observations

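Gene families were also counted by symbol, after their values were seen. Of 31 Cfap genes, which serve cilia and flagella, 11 were higher in II/III-VI (35.5%) and 5 lower (16.1%), beside 13.0% and 16.4% of all genes. Some Cfap genes are in the axoneme list as well, among them Cfap58, which was higher, and Cfap65, which was lower. The Cfap counts are therefore not separate from those of that list. Of 48 Usp genes, ubiquitin-specific proteases, 3 were higher (6.25%) and 13 lower (27.1%), around a median of 0.02. Of 106 Vmn and Olfr genes, the vomeronasal and olfactory receptors, 24 were higher (22.6%) and 10 lower (9.43%), around a median of -0.06. Of 65 ribosomal protein genes (Rpl and Rps), 8 were higher (12.3%) and 2 lower (3.08%), around a median of 0.05, and 50 of the 65 differences were above 0 (76.9%, beside 42.4% of all genes). Members of some of these families, such as the olfactory receptors, resemble each other, so their probes may read more than 1 gene.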
